A study of Mus musculus with 6 samples.

Results

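Collagen chain genes were followed here in RNA from aortic roots. The members are the rows of the deposited count table whose symbol reads Col, a number, a, and a number, and whose counts sum to at least 30 over the 6 libraries. Of 23420 rows in the table, 44 had such a symbol and 41 reached that total. Just below it lay Col26a1 with 22 counts, Col6a4 with 21 and Col10a1 with 13, and just above it Col24a1 with 56 and Col17a1 with 94. The members fall into 11 fibrillar chains, 8 chains of the basement membrane, 9 FACIT chains (fibril-associated collagens with interrupted triple helices) and 13 others.

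A collagen is a trimer of chains wound into a triple helix, and each chain has its own gene. Fibrillar collagens form the banded fibrils that carry tension in the vessel wall and the valve, and FACIT collagens sit on the surface of such fibrils. Type IV collagen forms the sheet-like network of basement membranes, which surround each smooth muscle cell and underlie the endothelium. Its chains assemble only in set combinations: the chains of Col4a1 and Col4a2 form the trimer found in nearly all basement membranes, those of Col4a3, Col4a4 and Col4a5 form one known from kidney and lung, and those of Col4a5 and Col4a6 form one known from smooth muscle, the aorta included.

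The 6 libraries come from C57Bl6/J mice, 3 labelled Sost+/+ and 3 labelled Sost-/-. Sost encodes sclerostin, a secreted inhibitor of Wnt signalling. All were 12 months old, and both groups had eaten a high-cholesterol diet for 8 months from the age of 4 months, so no group without the diet enters here. The labels state neither how the Sost allele was made, nor the sex, nor whether each root came from a separate animal, and p-values then reflect how much these 6 roots vary.

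The libraries held between 37023586 and 48172863 counts. Counts of Sost itself were 354, 621 and 274 under the Sost+/+ label and 2284, 1063 and 513 under the Sost-/- label, so it was not lower under the knockout label, and every direction below is that of libraries by label. Counts per gene do not show whether the reads lie in a part of Sost that the allele removes. Collagen chains together took 0.400%, 0.557% and 0.553% of all counts in the Sost+/+ libraries and 0.598%, 0.554% and 0.593% in the Sost-/- libraries. Sost+/+ replicate 1 lay below the other libraries in this share. None of the 10 smooth muscle or 10 cardiomyocyte markers was at 0 throughout the libraries. Summed over the list, smooth muscle markers stood at 1300 to 2570 CPM (counts scaled to a common library size with TMM factors) in the Sost+/+ and 3850 to 5820 CPM in the Sost-/- libraries, and cardiomyocyte markers at 74000 to 78600 and 52100 to 62900 CPM. In such bulk RNA, fewer cells of a type and less RNA per cell cannot be told apart.

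Col4a5 and Col4a6 both rose in the Sost-/- libraries, and they are neighbours on the X chromosome that are transcribed away from each other. Col4a6 occupies chromosome X from 141165403 to 141474076 on the minus strand and Col4a5 from 141475385 to 141689234 on the plus strand (build mm10, GENCODE M21), with 1308 bases between them. They rose by unlike amounts (log2 fold change 1.38 for Col4a6 and 0.46 for Col4a5), and shared control of the pair was not tested. The bases just before each start are shown because only this short stretch separates the starts. They come from RefSeq (GRCm38.p6), read 5′ to 3′ on the strand of each gene, chrX:141474077-141474326 for Col4a6 and chrX:141475169-141475384 for Col4a5, without bases that GENCODE annotates as exon. Capitals mark a match to GGGCGG on either strand (CCGCCC when read on the other strand), the core of a GC box, and the stretch before Col4a5 holds none.
Col4a6: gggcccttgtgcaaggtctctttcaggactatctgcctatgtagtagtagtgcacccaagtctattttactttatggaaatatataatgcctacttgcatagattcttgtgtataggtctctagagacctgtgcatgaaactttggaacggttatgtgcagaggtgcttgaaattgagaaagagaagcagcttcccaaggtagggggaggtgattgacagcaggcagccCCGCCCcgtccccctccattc
Col4a5: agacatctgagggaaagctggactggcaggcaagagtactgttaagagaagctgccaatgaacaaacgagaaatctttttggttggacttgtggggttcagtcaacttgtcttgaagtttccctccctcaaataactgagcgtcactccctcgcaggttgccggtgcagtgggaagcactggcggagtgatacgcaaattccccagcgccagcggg

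Promoter windows of RefSeq reach from 250 bases before to 50 bases after a start, and 33 of the 41 members had at least 1 window (36 windows in all). GGGCGG on either strand was found in 22 of the 36 (61.1%), against 35.7% of 32851 windows of all genes. Of the type IV chains, the windows of Col4a1, Col4a2, Col4a5 and Col4a6 held it. That of Col4a4 did not, and Col4a3 had no window. Member windows were also richer in G and C, with a median of 60.0% against 52.7% over all windows, and the part of this in the motif's share was not tested. CANNTG, the E-box, was found in 20 of the 36 (55.6%), against 72.3% of all windows. The match in the Col4a5 window lies in the bases that GENCODE counts as exon. TATAAA, also searched on both strands and sharing no letters with GGGCGG, was found in 4 of the 36 windows (11.1%, against 13.6% of all), those of Col3a1, Col11a2, Col13a1 and Col17a1. No member window held a CArG box, the sequence bound by serum response factor, which 1.63% of all windows held on either strand and which can contain TATAAA. These matches describe the letters in a short window and nothing about binding.

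The members spanned more than 3 orders of magnitude in level per kilobase of exon, the scale on which chains are compared here. Over the 6 libraries the highest mean was that of Col4a1 at 107 CPM per kilobase, rank 416 among 14194 tested genes with a known exon length. Col4a2 (85.9), Col3a1 (83.6), Col1a1 (74.6), Col1a2 (55.4) and Col6a1 (54.1) followed. These 6 chains held 66.9%, 69.0% and 68.8% of the summed collagen level per kilobase in the Sost+/+ libraries and 64.4%, 65.3% and 64.0% in the Sost-/- libraries. At the other end stood Col24a1 (0.0301 CPM per kilobase), Col25a1 (0.0303), Col17a1 (0.0628) and the cartilage chain Col2a1 (0.0937). Col4a2 and Col3a1 differed by less than the spread between libraries. Col6a1 stood above Col1a2 in each Sost+/+ library (54.0 ± 4.80 against 47.9 ± 6.0 CPM per kilobase, SD, n = 3) and below it in each Sost-/- library (54.2 ± 2.64 against 63.0 ± 4.89).

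**Figure D1:**
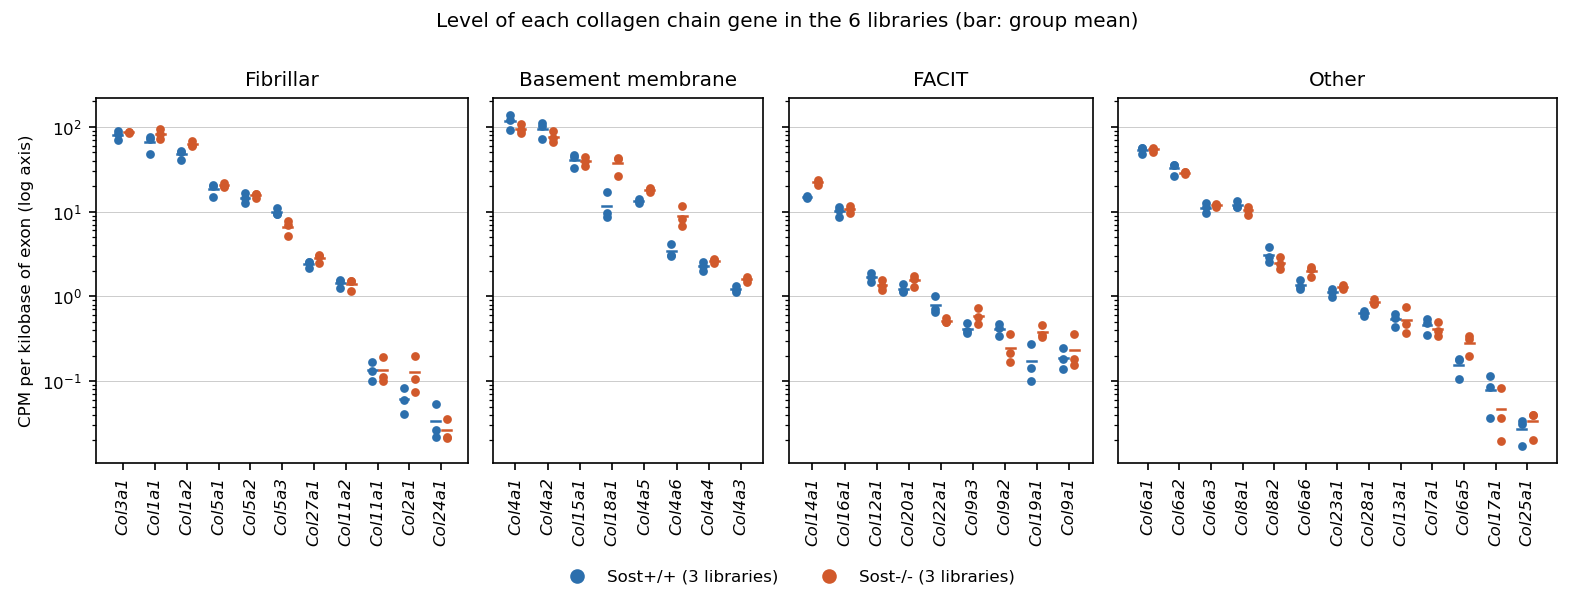
Level of each of the 41 collagen chain genes in CPM per kilobase of exon (log axis) by class, with 1 point per library and a bar at each group mean. Col4a1, at a mean of 107 over the 6 libraries, is highest, and the points of Col18a1, Col4a5, Col4a6 and Col14a1 do not overlap between the groups.

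In the comparison of Sost-/- with Sost+/+ libraries, 4 collagen chains rose and none fell among the 40 that passed the filter on low counts. Only Col24a1 among the members did not pass that filter. Calls are at a Benjamini-Hochberg adjusted p under 0.05, taken over 15096 genes in a quasi-likelihood test of edgeR. The chains that rose were Col18a1, Col4a6, Col4a5 and Col14a1, so 10% of the members tested were called higher, against 2.18% of all genes, and 0 were called lower, against 0.371% of all genes. At an unadjusted p under 0.05 stood 11 members with a positive and 3 with a negative fold change. The median log2 fold change was 0.12 over the members tested and 0.007 over all genes tested. By DESeq2, 8 members were higher (20.0%, against 5.11% of all genes) and 2 lower (5.0%, against 2.87%), the further ones being Col4a3, Col1a2, Col6a6 and Col19a1 higher and Col5a3 and Col22a1 lower.

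The levels of 11 members lay higher in every Sost-/- than in every Sost+/+ library (27.5% of those tested, against 14.3% of all genes), and those of 3 lay lower (7.5%, against 11.1%). Besides the 4 chains that passed, the higher ones were Col4a3, Col1a2, Col19a1, Col6a5, Col6a6, Col23a1 and Col28a1, and the lower ones Col5a3, Col8a1 and Col22a1. Over all 41 members, replicates varied more than those of the median gene. The members' median coefficient of variation was 15.6% in Sost+/+ and 13.8% in Sost-/- libraries, against 11.0% and 9.44% over all genes tested.

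These calls depended on single libraries. Without Sost+/+ replicate 1 edgeR called no gene at all, while 2262 genes had an unadjusted p under 0.05, and without Sost-/- replicate 3 it called 10 genes (1714 at an unadjusted p under 0.05), none of them a collagen chain. DESeq2 without Sost+/+ replicate 1 called the same 4 chains higher, and Col4a1, Col4a2, Col5a3, Col6a2 and Col22a1 lower. Limma-voom called 0 chains without that library. DESeq2 without Sost-/- replicate 3 called Col4a5, Col4a6, Col14a1 and Col6a6 higher, and limma-voom called Col4a6 alone. The members' median was -0.01 without Sost+/+ replicate 1, the library with the lowest collagen share.

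**Figure D2:**
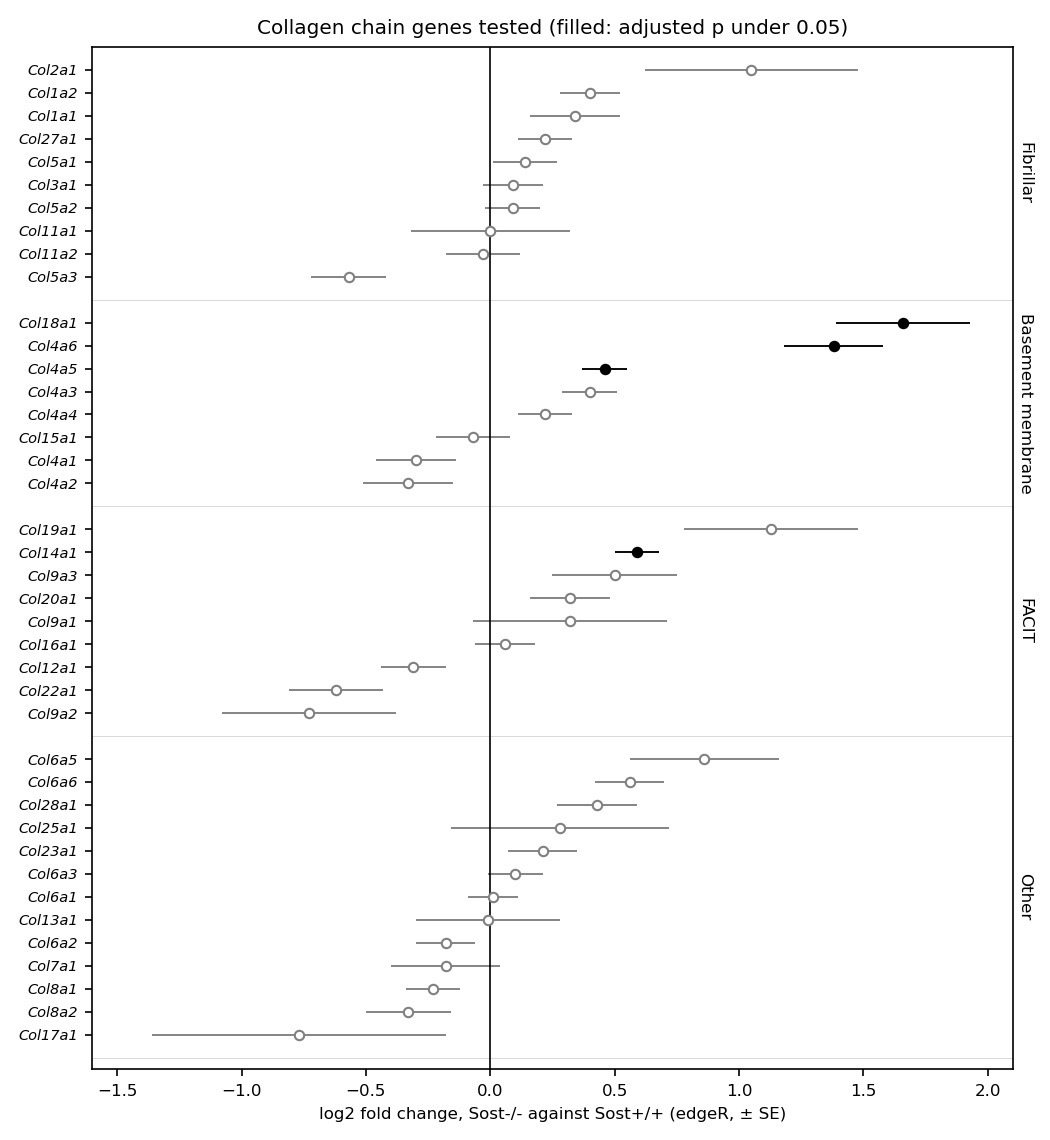
Log2 fold change of the 40 tested chains, Sost-/- against Sost+/+, with the SE of edgeR as bars and filled points for an adjusted p under 0.05. Filled points are Col18a1 (1.66), Col4a6 (1.38), Col4a5 (0.46) and Col14a1 (0.59), and the members of each class lie on both sides of 0.

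Basement membrane chains held 3 of the 4 calls. Of these 8 chains, 3 rose (37.5%, against 2.18% of all genes), 0 fell and 5 did not pass. Their fold changes ranged from -0.33 to 1.66 on the log2 scale with a median of 0.31. Those of Col4a1, Col4a2 and Col15a1, the most abundant of the class, were negative. Col18a1 encodes type XVIII collagen, a basement membrane collagen that carries heparan sulfate and whose cleaved end is endostatin. The gene spans bases 77052178 to 77166548 of chromosome 10, minus strand, with 2 RefSeq starts that the counts per gene do not separate. Its level was 61.0, 119 and 67.3 CPM in Sost+/+ replicates 1 to 3 and 298, 184 and 303 CPM in Sost-/- replicates 1 to 3. Sost+/+ replicate 2 was the highest of its group and Sost-/- replicate 2 the lowest of its group, and the groups did not overlap. The means were 82.5 ± 32.0 and 261 ± 67.2 CPM (SD, n = 3), and the fitted log2 fold change was 1.66 (SE 0.27, edgeR adjusted p = 0.0234).

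Col15a1, which encodes the other collagen of the multiplexin group, did not pass. It stood at 208, 298 and 279 CPM in the Sost+/+ and 282, 217 and 248 CPM in the Sost-/- libraries, with overlapping groups and a log2 fold change of -0.07 (SE 0.15, edgeR adjusted p = 0.824). The ratio of Col18a1 to Col15a1 per kilobase was 0.282 ± 0.0735 in Sost+/+ and 0.941 ± 0.168 in Sost-/- libraries (SD, n = 3), without overlap.

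Col4a6 had 23.7, 32.9 and 24.6 CPM in the Sost+/+ and 64.4, 54.6 and 92.2 CPM in the Sost-/- libraries. Every Sost-/- library was above every Sost+/+ library, and Sost-/- replicate 3 was the highest. The log2 fold change was 1.38 (SE 0.20, edgeR adjusted p = 0.0151), the means being 27.0 ± 5.08 and 70.4 ± 19.5 CPM (SD, n = 3). Its neighbour Col4a5 had 83.7, 89.3 and 94.7 CPM against 125, 114 and 127 CPM, a narrower gap in which the groups again did not overlap (log2 fold change 0.46, SE 0.09, edgeR adjusted p = 0.0367). The call of Col4a5 ended without any 1 of the 6 libraries, at log2 fold changes of 0.40 to 0.50.

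The other type IV chains did not pass the test. Col4a3 stood at 11.1, 13.2 and 11.7 CPM in the Sost+/+ and 15.9, 14.9 and 16.8 CPM in the Sost-/- libraries, without overlap (log2 fold change 0.40, SE 0.11, edgeR adjusted p = 0.0968). Col4a4, which starts 72 bases from Col4a3 on the opposite strand of chromosome 1, had 21.1, 26.7 and 24.4 CPM against 28.9, 28.7 and 26.5 CPM, with overlap (0.22, SE 0.11, edgeR adjusted p = 0.275). The common pair is the more abundant by far. Col4a1 had 687, 1040 and 911 CPM against 809, 692 and 639 CPM, and Col4a2 had 477, 743 and 677 CPM against 591, 486 and 437 CPM. In both, Sost+/+ replicate 1 lay within the range of the Sost-/- libraries and Sost+/+ replicates 2 and 3 lay above it. Their log2 fold changes were -0.30 (SE 0.16) and -0.33 (SE 0.18), with edgeR adjusted p = 0.332 and 0.336. In both, DESeq2 without Sost+/+ replicate 1 gave an adjusted p of 0.023, and over all alternatives adjusted p ran from 0.023 to 0.708 for Col4a1 and from 0.023 to 0.737 for Col4a2.

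The make-up of type IV collagen at the RNA level differed between the groups. Per kilobase, Col4a5 and Col4a6 together held 8.44%, 6.38% and 7.01% of the summed level of the 6 type IV chains in the Sost+/+ libraries and 11.7%, 12.3% and 16.4% in the Sost-/- libraries. Col4a1 and Col4a2 held 91.2% ± 1.22 and 84.5% ± 2.70 (SD, n = 3). Col4a3 and Col4a4 held 1.51% ± 0.164 and 2.1% ± 0.186, so their share was also higher in the Sost-/- libraries. None of these shares overlapped between the groups. Within the pairs, Col4a2 to Col4a1 stayed near a ratio of 0.809 ± 0.0279 in Sost+/+ and 0.796 ± 0.0265 in Sost-/- libraries, whereas Col4a6 to Col4a5 went from 0.256 ± 0.0481 to 0.482 ± 0.112 (SD, n = 3). Shares and ratios over chosen chains are descriptions and carry no test.

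**Figure D3:**
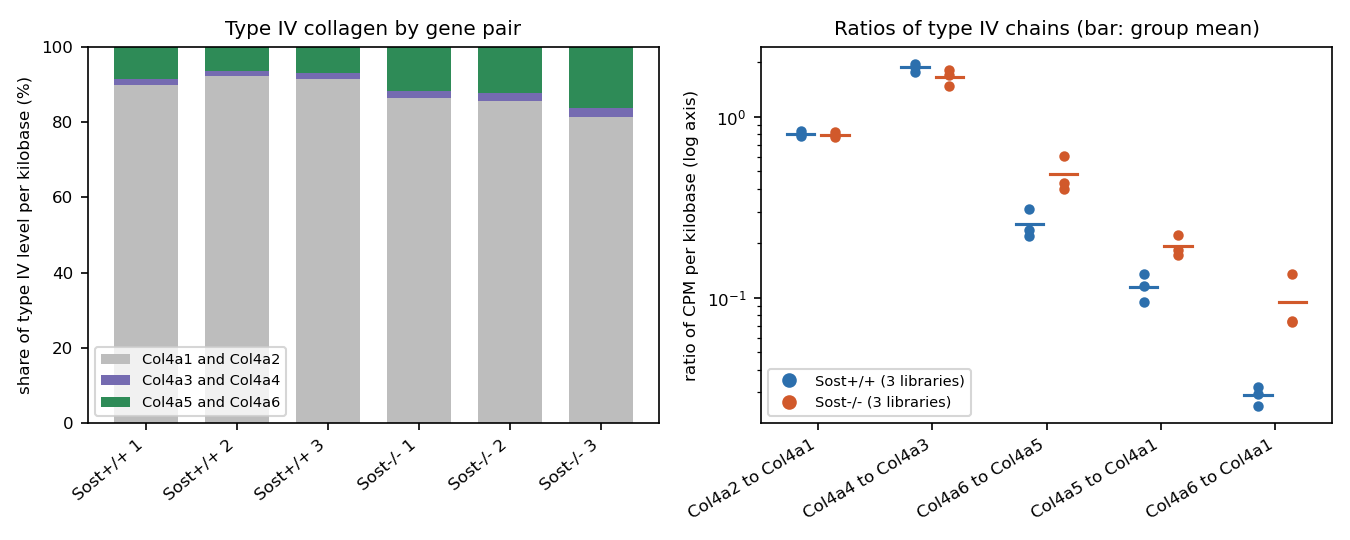
Left, the share of each gene pair in the summed type IV collagen level per kilobase (%), 1 bar per library. Right, ratios of CPM per kilobase (log axis) with 1 point per library and a bar at each group mean: Col4a2 to Col4a1 overlaps between the groups, while Col4a6 to Col4a5, from 0.256 to 0.482 in the mean, does not.

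Summed smooth muscle markers also lay higher in the Sost-/- libraries. Of the 10 markers listed, 8 rose and 0 fell, where 2.18% of all genes were called higher and 0.371% lower. Their median log2 fold change was 1.59, and none was at 0. Sost+/+ replicate 2, with the highest level of Col18a1 and Col4a6 in its group, also had the highest sum of smooth muscle markers there (2570 CPM, against 1440 and 1300). Col4a5 and Col14a1 were instead highest in Sost+/+ replicate 3 (94.7 and 106 CPM), where the marker sum was lowest. Sost-/- replicate 2 was lowest of its group in Col18a1, Col4a6, Col4a5, Col14a1 and the marker sum (3850 CPM, against 4780 and 5820). Endothelial markers had 0 of 10 called and sums of 1200 to 1430 CPM in the Sost+/+ and 1070 to 1450 CPM in the Sost-/- libraries. Macrophage and adipocyte markers had 0 of 10 called each, with median log2 fold changes of -0.01 and 0.96. The part of the smooth muscle markers in the change of the collagen chains was not tested.

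**Figure D4:**
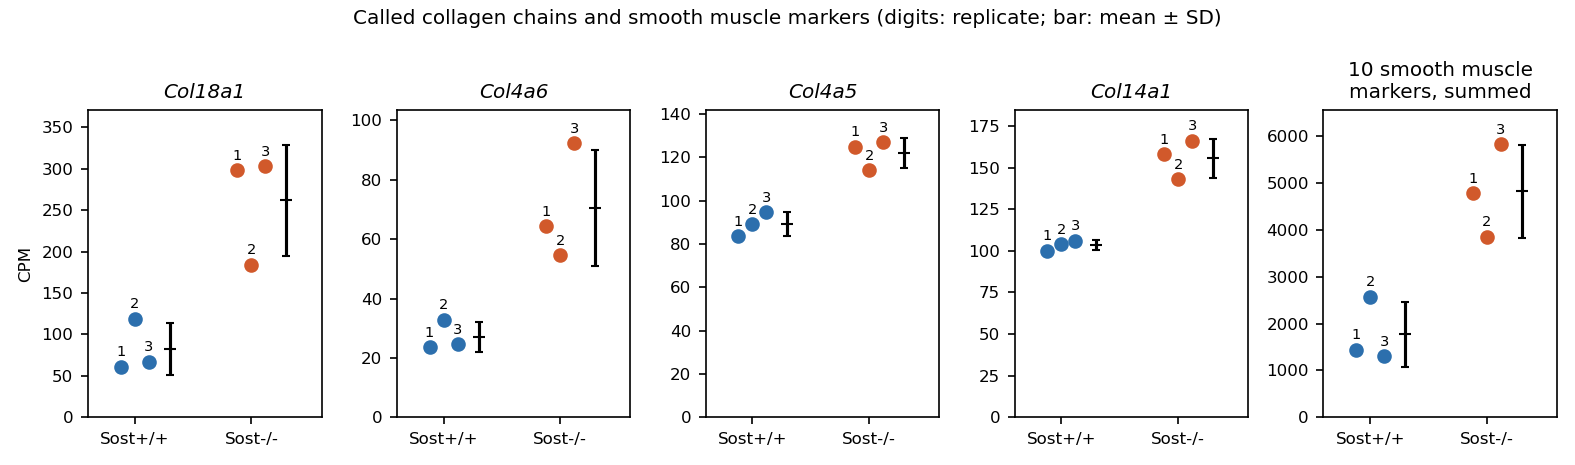
CPM of the 4 chains that rose and the summed CPM of 10 smooth muscle markers, with 1 point per library, its replicate number above it, and the mean ± SD of each group as a black bar. Col18a1, Col4a6 and the markers share their highest Sost+/+ library (replicate 2) and their lowest Sost-/- library (replicate 2).

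Among the 9 FACIT chains, 1 rose (11.1%, against 2.18% of all genes) and 0 fell. Col14a1 encodes type XIV collagen, which binds to fibril surfaces in tension-bearing connective tissue, and spans bases 55307750 to 55520803 of chromosome 15, plus strand. Its 100, 104 and 106 CPM in the Sost+/+ libraries were closely spaced, and the Sost-/- libraries had 158, 143 and 166 CPM, without overlap. The log2 fold change was 0.59 (SE 0.09, edgeR adjusted p = 0.0179). Col12a1, its close relative, had a log2 fold change of -0.31 (SE 0.13), and the ratio of Col14a1 to Col12a1 per kilobase was 8.83 ± 0.801 in Sost+/+ and 16.5 ± 2.23 in Sost-/- libraries (SD, n = 3). Fibroblast markers, 0 of 10 of which were called, summed to 6680 to 7590 CPM and 7080 to 8590 CPM. The levels of 2 of them, Pdgfra (0.31) and Lum (0.46), lay higher in every Sost-/- library (14.3% of all genes did). That of 1, Mfap5 (-0.21), lay lower (11.1% of all genes did), and the others overlapped. The part of the fibroblast markers in the level of Col14a1 was not tested.

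The remaining FACIT chains did not pass. Col19a1 was at 0.987, 1.88 and 0.686 CPM in the Sost+/+ and 2.27, 2.39 and 3.15 CPM in the Sost-/- libraries (log2 fold change 1.13, SE 0.35, edgeR adjusted p = 0.129). Col22a1, a collagen of tissue junctions such as that of muscle and tendon, was lower in each Sost-/- library, with 6.01, 6.46 and 9.39 CPM against 4.56, 5.13 and 4.56 CPM (log2 fold change -0.62, SE 0.19, edgeR adjusted p = 0.125). Of 10 cardiomyocyte markers 0 were called, with log2 fold changes from -0.66 to 0.65 and a median of -0.27. The levels of 5 of them, Myh6, Actc1, Tnnt2, Tnni3 and Myl2, lay lower in every Sost-/- library, as did those of 11.1% of all genes. The other 5 overlapped between the groups, and of these Myl4 (0.65) and Myl7 (0.46) had positive log2 fold changes. The part of the cardiomyocyte markers in Col22a1 was not tested. Col16a1 (0.06) and Col20a1 (0.32) overlapped between the groups, as did the cartilage chains Col9a1 (0.32), Col9a2 (-0.73) and Col9a3 (0.50).

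No fibrillar chain passed in edgeR with the filter on low counts, and without it Col5a3 was called lower (edgeR adjusted p = 0.0404). The 10 tested had log2 fold changes from -0.57 to 1.05 with a median of 0.11. Col3a1, the most abundant of them per kilobase, had 687, 815 and 886 CPM in the Sost+/+ and 839, 848 and 847 CPM in the Sost-/- libraries, where the coefficient of variation was 0.578%. Its log2 fold change was 0.09 (SE 0.12, edgeR adjusted p = 0.720). Of the type I chains, Col1a1 had 312, 479 and 503 CPM against 546, 479 and 618 CPM (0.34, SE 0.18), and Col1a2 had 510, 650 and 624 CPM against 755, 740 and 852 CPM (0.40, SE 0.12, edgeR adjusted p = 0.128). The groups overlapped in Col1a1 and not in Col1a2. The ratio of Col1a2 to Col1a1 per kilobase was 0.745 ± 0.107 and 0.759 ± 0.0502 (SD, n = 3), with overlapping groups.

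Type V chains join type I and III chains in mixed fibrils and limit their thickness. Col5a3 was at 64.2, 74.0 and 64.6 CPM in the Sost+/+ and 53.3, 48.0 and 34.9 CPM in the Sost-/- libraries, without overlap. Its log2 fold change of -0.57 (SE 0.15) had the smallest p among fibrillar chains and did not pass (edgeR adjusted p = 0.0816, and 0.00757 to 0.210 over the alternatives). Col5a1 (0.14, SE 0.13) and Col5a2 (0.09, SE 0.11) overlapped between the groups. Per kilobase, Col5a3 to Col5a1 went from 0.541 ± 0.0831 to 0.324 ± 0.0528 (SD, n = 3), without overlap, and Col5a2 to Col5a1 from 0.790 ± 0.0889 to 0.759 ± 0.0391, with overlap. Without Sost+/+ replicate 1 the fold changes of Col3a1, Col5a1 and Col5a2 were -0.02, -0.01 and -0.0089.

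The fibrillar chains at low level include those known from cartilage. Col2a1, the main cartilage collagen, had 17, 30 and 20 counts in the Sost+/+ and 78, 40 and 29 counts in the Sost-/- libraries, with overlapping groups (log2 fold change 1.05, SE 0.43, edgeR adjusted p = 0.219). Chondrocyte markers had 1 of 8 tested called higher (2.18% of all genes were), Acan (log2 fold change 2.2), with a median of 0.60. The levels of 3, Acan, Cytl1 and Chad, lay higher in every Sost-/- library (14.3% of all genes did). Those of 0 lay lower (11.1% did). The 10 listed summed to 245 to 301 CPM and 288 to 396 CPM, most of it Comp (means of 182 and 169 CPM). Their part in Col2a1 was not tested. Col11a1 and Col11a2, the minor chains of cartilage fibrils, had Sost-/- levels of 0.998 and 0.982 times the Sost+/+ level. Col27a1 was at 0.22 (SE 0.11), and Col24a1 held 56 counts in all.

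None of the 13 other chains passed in edgeR with the filter on low counts, and without it Col6a6 was called higher (edgeR adjusted p = 0.0468). Type VI collagen forms beaded filaments around cells, and none of its common chains passed. Col6a1 had 212, 247 and 250 CPM against 246, 243 and 224 CPM (log2 fold change 0.01, SE 0.10, edgeR adjusted p = 0.981), a value that turned negative under other scalings and without single libraries. Col6a2 was at -0.18 (SE 0.12) and Col6a3 at 0.10 (SE 0.11), the latter at -0.01 without Sost+/+ replicate 1. The rarer chains Col6a6 and Col6a5, neighbours on chromosome 9 with 27917 bases between them, lay higher. Col6a6 had 11.1, 14.3 and 11.7 CPM in the Sost+/+ and 20.4, 19.1 and 15.4 CPM in the Sost-/- libraries, without overlap (log2 fold change 0.56, SE 0.14, edgeR adjusted p = 0.0793, and 0.00898 to 0.289 over the alternatives). Col6a5 had 1.68, 1.73 and 0.988 CPM against 2.97, 3.21 and 1.86 CPM (0.86, SE 0.30, edgeR adjusted p = 0.158).

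Col8a1 and Col8a2 encode the short-chain collagen of vascular and corneal matrix. Col8a1 had 90.0, 89.6 and 106 CPM against 82.6, 88.9 and 72.1 CPM (log2 fold change -0.23, SE 0.11), and the groups touched without overlapping. Col8a2 was at -0.33 (SE 0.17), with overlap. Col28a1, known from peripheral nerve, had 3.14, 3.26 and 2.91 CPM against 3.97, 4.54 and 4.06 CPM (0.43, SE 0.16, edgeR adjusted p = 0.188). The levels of 5 of 10 Schwann cell markers lay higher in every Sost-/- library (14.3% of all genes did). Those of 0 lay lower (11.1% of all genes did). Schwann cell markers had 1 of 10 called higher (2.18% of all genes were), with a median log2 fold change of 0.52. They summed to 191 to 201 CPM and 203 to 247 CPM, and their part in Col28a1 was not tested. The anchoring fibril chain Col7a1 (-0.18) and the membrane-spanning chains Col13a1 (-0.01), Col17a1 (-0.77), Col23a1 (0.21) and Col25a1 (0.28) did not pass, with Col17a1 and Col25a1 under 1 CPM in every library.

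As a share of all collagen counts, the classes shifted by a few percentage points. Fibrillar chains took 42.7% ± 1.31 in the Sost+/+ and 46.5% ± 2.05 in the Sost-/- libraries, and basement membrane chains 38.2% ± 2.43 and 35.2% ± 2.36 (SD, n = 3). FACIT chains took 4.17% ± 0.374 and 4.81% ± 0.229, and the others 15% ± 0.914 and 13.5% ± 0.843. The groups overlapped for basement membrane chains, the class with the most calls, and not for fibrillar chains. Per kilobase, basement membrane chains took 42.2% ± 2.47 and 39.3% ± 2.42.

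Other members also lie next to each other in the genome, and none of them passed the test. Col3a1 and Col5a2 end 24614 bases apart on chromosome 1, and each had a log2 fold change of 0.09. Col9a1 and Col19a1, 9205 bases apart on the same chromosome, had values of 0.32 and 1.13. Col6a2 and Col6a1, on 1 strand of chromosome 10 with 85161 bases between them, were at -0.18 and 0.01. Col4a1 and Col4a2 share 22 bases of exon at their starts on opposite strands of chromosome 8, which is 0.295% and 0.332% of their exon bases. No member that rose shares exon bases with another annotated gene.

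Genes that modify, export, process and bind collagen were read from the same fit. Of 44 such genes, 42 were tested, 3 rose and 0 fell, where 2.18% of all genes were called higher and 0.371% lower. The median log2 fold change was 0.06. Receptors held 2 of the 3. Ddr2, a receptor tyrosine kinase activated by fibrillar collagen, had 80.3, 79.6 and 79.4 CPM in the Sost+/+ and 106, 107 and 109 CPM in the Sost-/- libraries (log2 fold change 0.43, SE 0.08, edgeR adjusted p = 0.0266). Libraries of each group lay very close together. Itga10, a collagen-binding integrin subunit, had 11.4, 13.5 and 13.5 CPM against 19.2, 21.4 and 19.6 CPM (0.65, SE 0.11, edgeR adjusted p = 0.0235).

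The third was Tll1, which encodes a metalloproteinase of the procollagen C-proteinase family. It had 0.964, 1.35 and 1.81 CPM in the Sost+/+ and 3.06, 3.16 and 3.06 CPM in the Sost-/- libraries (log2 fold change 1.17, SE 0.25, edgeR adjusted p = 0.0487), a call lost without any 1 library and with DESeq2's size factors. The calls of Ddr2 ended without any library but Sost-/- replicate 1, and those of Itga10 without any but Sost+/+ replicate 2 or Sost-/- replicate 1. Adjusted p over the alternatives ran from 3.79e-05 to 0.135 for Ddr2, from 9.76e-05 to 0.127 for Itga10 and from 0.00215 to 0.184 for Tll1.

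Of the other machinery, 0 of 10 prolyl hydroxylation genes, 0 of 5 lysyl hydroxylation genes, 0 of 6 chaperone and export genes and 0 of 5 cross-linking genes passed. Serpinh1, the collagen chaperone of the endoplasmic reticulum, had 500, 504 and 566 CPM in the Sost+/+ and 406, 406 and 423 CPM in the Sost-/- libraries, without overlap (log2 fold change -0.35, SE 0.10, edgeR adjusted p = 0.102). Lox, which starts the cross-linking of collagen and elastin, had 10.1, 11.7 and 12.7 CPM against 15.2, 16.6 and 16.9 CPM (0.50, SE 0.12, edgeR adjusted p = 0.0661). Leprel2, the older symbol of the prolyl hydroxylase gene P3h3, was at 0.35 (SE 0.09, edgeR adjusted p = 0.0879), and Plod1, a lysyl hydroxylase gene, at -0.18 (SE 0.10). By DESeq2 these values passed for Serpinh1 (adjusted p = 0.003), Lox (0.0128) and Leprel2 (0.0268), and Lox also passed in edgeR with no filter (0.0487). Over the alternatives adjusted p ran from 0.00179 to 0.311 for Serpinh1, from 0.0128 to 0.266 for Lox, from 0.0268 to 0.317 for Leprel2 and from 0.0282 to 0.621 for Plod1.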

How the data were processed

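Aortic root RNA of 6 libraries, 3 per genotype label, was sequenced in bulk from strand-specific (directional) libraries, per the labels. Counts, as deposited, are whole reads per gene symbol with no normalization. DRAGEN, HTSeq, DESeq2 and mm10 are named in the submitters' processing notes. Versions, annotation and strand setting: not given in the sources used here. The second deposited table, of normalized signal, is the counts divided by 1 factor per library, as checked on its values, and served as an alternative.

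Genes were filtered with filterByExpr (minimum count 10, minimum total 15), which left 15096, given TMM factors and fitted in edgeR 4.0.16 under R 4.3.3 (glmQLFit, glmQLFTest) without covariates. The SE is the absolute log2 fold change divided by the square root of F. Exon lengths and coordinates are unions of GENCODE M21 exons (GRCm38, the assembly of mm10), matched by symbol for all 41 members. Alternatives were other scalings (DESeq2's size factors, upper quartile), no filter, DESeq2 1.42.0, limma-voom 3.58.1, limma on log2(deposited value + 1), and each library left out. DESeq2 and limma-voom without Sost+/+ replicate 1 or Sost-/- replicate 3 were added after seeing the data. The fit was first tested on simulated counts. No 2 libraries of a group were alike within sampling noise (chi-square per degree of freedom 33.9 to 64.0).

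Members, classes and the lists of machinery and markers were chosen with earlier results of these data known. Full values are given for members past the threshold, for the most abundant and the smallest-p member of each class and their partner chains, and for machinery genes past the threshold or of smallest p in their subgroup. Other members were named by single values, and those given beyond that (among them Col1a1, Col1a2, Col2a1, Col15a1, Col19a1, Col22a1, Col28a1 and Col8a1) were chosen after their values were seen. RefSeq synonyms linked listed symbols to older ones in the table.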

Additional observations from a re-analysis of the deposited data

How the results depend on the processing

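Of the 24 named genes, 288 values under other settings gave 240 with direction and side of the threshold kept, 29 that lost and 9 that gained a call, and 10 that changed sign, in 5 genes. Over all genes 385 were called, 1205 by DESeq2, and 0 to 349 with 1 library left out. Collagen chains higher numbered 4, 5 with no filter (Col6a6 added), 8 by DESeq2 and 0 to 4 with 1 library left out. The 4 called without Sost+/+ replicate 2 included Col19a1 and not Col4a5. Without Sost+/+ replicate 1, DESeq2 called 631 genes and limma-voom 0 (2262 by edgeR at an unadjusted p under 0.05), with 5 chains lower by DESeq2 and 0 higher by limma-voom. Without Sost-/- replicate 3, limma-voom called 45 genes and 1 chain higher. Chains lower numbered 0, 1 with no filter (Col5a3) and 2 by DESeq2. The members' median and the class shares moved by less than the spread between libraries under every setting run for them. For the median this spread (0.16) exceeded the value itself (0.12), so its full loss would not count as a move. It was -0.01 without Sost+/+ replicate 1. The difference in basement membrane share, -3.0 percentage points (spread 2.4), ran from -4.36 to -1.62 with 1 library left out. The 6 chain ratios recomputed with 1 library left out also moved by less than their spread. Among them was Col4a6 to Col4a5, whose difference of 0.226 ran from 0.162 to 0.266. Sign changes were in genes near 0: with 1 library left out Col3a1 ran from -0.02 to 0.16, Col5a1 from -0.01 to 0.22, Col5a2 from -0.0089 to 0.19, Col6a3 from -0.01 to 0.19 and Col6a1 from -0.08 to 0.05. Col6a1 was at -0.0035 with DESeq2's size factors in edgeR and by DESeq2, and at -0.0021 on deposited normalized values. The cause of these moves was not tested. Over every alternative the log2 fold change of Col18a1 ran from 1.47 to 2.02, Col4a6 from 1.13 to 1.54, Col4a5 from 0.394 to 0.501 and Col14a1 from 0.538 to 0.647, with adjusted p up to 0.125, 0.118, 0.177 and 0.110. Chains under 1 CPM rest on few counts, which limits what the test can detect there. No paired analysis was possible because the labels give no replicate numbers: those used here follow the order of deposit and only name libraries.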
